A study of Arabidopsis thaliana with 6 samples.

Results

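Plastids make proteins on ribosomes of their own, which descend from those of the bacterial ancestor of the plastid. Most proteins of these ribosomes are encoded in the nucleus, made in the cytosol and imported, while the rest are encoded in the plastid genome. The plastid ribosome translates core subunits of the photosystems and the large subunit of Rubisco. Several of its nuclear genes are needed for embryo or chloroplast development. The genes described here are nuclear genes for proteins of the plastid ribosome. Of a list of 38 such loci, 8 had a probe set with a single named gene in the platform's annotation table, out of 13513 probe sets with 1 named gene and 22746 in all. Each of the 8 genes had 1 probe set, and all 8 passed the filter that left out the lowest 30% of probe sets by mean log2 intensity.

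Whole 10-day-old Arabidopsis thaliana seedlings of the Columbia background were compared after growth on scutellarin, a flavone that carries a glucuronic acid and occurs in skullcap species. They grew on filter paper wetted with 100 µM scutellarin in 1% DMSO, or with 1% DMSO alone (mock), so the solvent was common to both groups. The seeds were first held for 2 days in darkness at 4 °C, and seedlings were raised at 25 °C under a light period of 12 h. Each group had 3 samples, each of 100 pooled seedlings and from independent experiments per the labels, and each sample was read on 1 Affymetrix ATH1 array. The median intensity of an array was 144.8 at the lowest and 162.3 at the highest.

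The 8 measured genes cover both subunits of the plastid ribosome. Locus names are given here from general knowledge of Arabidopsis, since the annotation tables hold these loci without a protein name. In the small subunit, which decodes the messenger RNA, AT1G64510 encodes protein S6 and AT3G13120 encodes S10. AT5G24490 encodes PSRP1, known from spinach as a factor that binds the small subunit and holds the ribosome inactive. In the large subunit, which joins amino acids, AT2G43030 encodes L3, AT4G01310 L5, AT3G54210 L17, AT5G47190 L19 and AT5G65220 L29. In all, 3 of 14 small subunit loci and 5 of 24 large subunit loci were measured. The other 30 loci, among them RPS1, RPS9, RPL4, RPL9, both RPL12 genes, PSRP2, PSRP4, PSRP5 and PSRP6, had no named probe set and were not analysed here. The results therefore describe 8 genes and not the whole ribosome.

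Seedlings grown on scutellarin had lower transcript levels for all 8 measured genes, and 3 of the 8 passed the test. The genes for L5, L19 and S6 fell to between 65.8% and 76.1% of their mock levels. The other 5 lay between 67.9% and 83.3% of mock without passing, and no gene rose. A gene was said to fall or rise at an adjusted p under 0.05 in limma, with Benjamini-Hochberg adjustment over all 15923 probe sets tested. In that test 9.11% of all probe sets fell and 10.3% rose, and 53.7% had a log2 change below 0. The 8 probe sets are bright. In a separate limma fit to the 2437 probe sets at least as bright as the dimmest of them, 21.6% fell, and 4 of the 8 genes. The median log2 change of the 8 genes was -0.36, beside -0.04 over all tested probe sets. These are bulk samples, so fewer plastid-rich cells and less RNA per cell cannot be told apart.

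**Figure D1:**
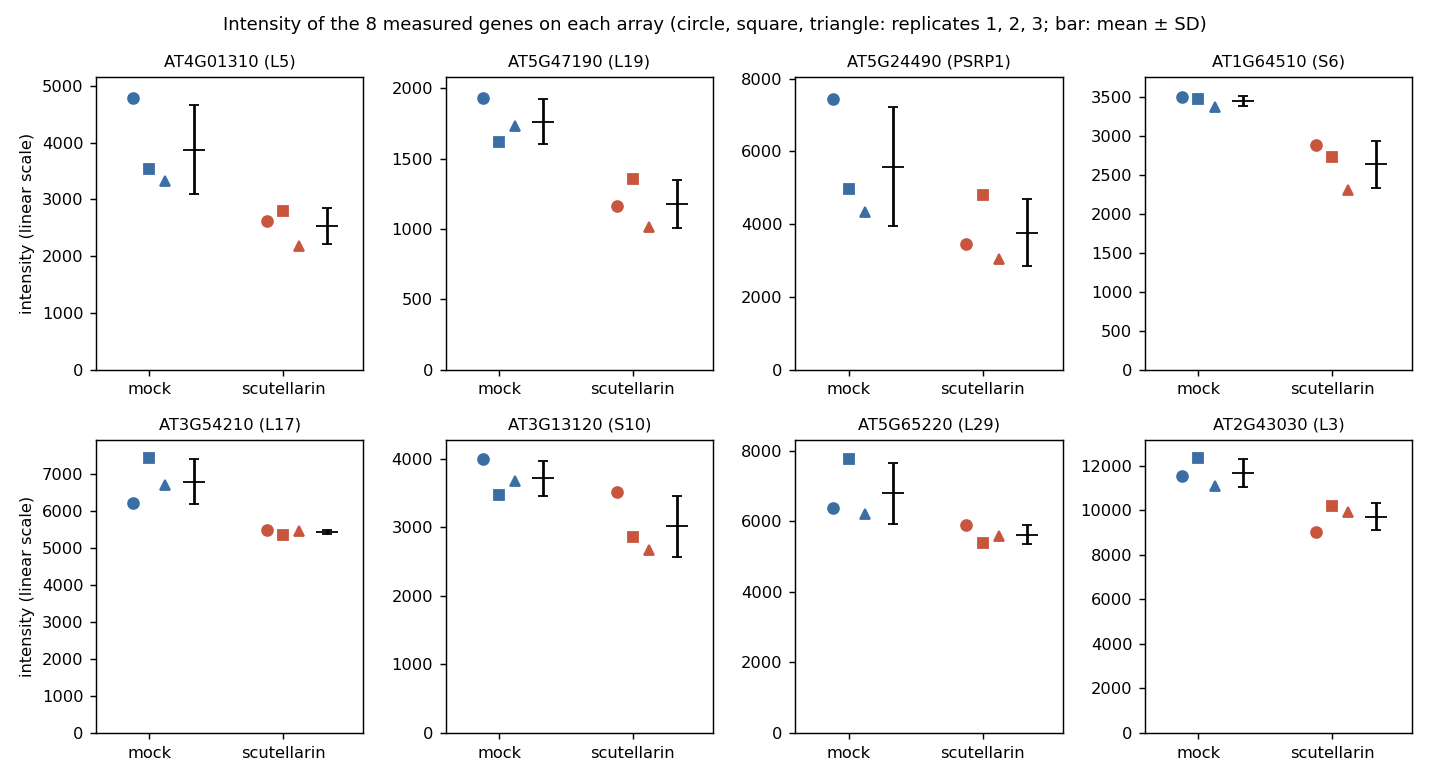
Intensity (linear scale, axis from 0) of each of the 8 measured genes on the 3 mock and 3 scutellarin arrays, with circles, squares and triangles for replicates 1, 2 and 3 and a bar for the mean ± SD. For 6 of the 8 genes every scutellarin array lies below every mock array, and for AT5G24490 and AT3G13120 the groups overlap. Such a gap was seen for 18.6% of all tested probe sets, and for 28.4% of those at least as bright as the dimmest of the 8.

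In the large subunit, AT4G01310 and AT5G47190 fell. AT4G01310 encodes L5, which in bacteria binds the 5S ribosomal RNA in the central protuberance of the subunit. Its intensities were 4783, 3542 and 3319 on mock arrays 1 to 3, and 2625, 2793 and 2188 on scutellarin arrays 1 to 3. The highest scutellarin array lay below the lowest mock array, and mock replicate 1 stood above the other 2 mock arrays. The mean fell from 3881 ± 789 to 2535 ± 312 (SD, n = 3), a log2 change of -0.60 ± 0.15 (SE, limma adjusted p = 0.0169). Without mock replicate 1 the change was -0.44 and the call was lost (adjusted p = 0.0544), as it was without scutellarin replicate 3 (-0.50, adjusted p = 0.0699).

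AT5G47190 encodes L19, which in bacteria sits where the large subunit meets the small one. Mock intensities were 1935, 1621 and 1735, and scutellarin intensities were 1163, 1355 and 1017. The groups did not overlap, and the spread within each was below the gap between their means. The mean fell from 1764 ± 159 to 1179 ± 169 (SD, n = 3), a log2 change of -0.59 ± 0.14 (SE, limma adjusted p = 0.0124). This was the lowest adjusted p among the 8 genes. The call was lost without scutellarin replicate 3 (-0.49, adjusted p = 0.0519) and remained without any other single array.

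The 3 other large subunit genes were lower in the scutellarin group without passing. AT3G54210, for L17, a protein near the exit of the peptide tunnel in bacteria, read 6221, 7432 and 6717 in mock and 5478, 5366 and 5458 with scutellarin. The scutellarin arrays of this gene were close together, at 5434 ± 59.4 (SD, n = 3), and all lay below the mock arrays. Its log2 change was -0.32 (95% interval -0.56 to -0.08, limma adjusted p = 0.0653).

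AT5G65220 encodes L29, which also lies near the tunnel exit in bacteria. It read 6375, 7782 and 6225 in mock and 5911, 5393 and 5576 with scutellarin. The groups did not overlap, but mock replicate 2 stood well above the other 2 mock arrays. The log2 change was -0.27 (95% interval -0.53 to -0.0043, adjusted p = 0.144 in limma), and -0.16 without mock replicate 2.

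AT2G43030 encodes L3, which in bacteria reaches towards the peptidyl transferase centre. It read 11534, 12336 and 11103 in mock and 9013, 10182 and 9933 with scutellarin. The groups did not overlap, and the log2 change was -0.26 (95% interval -0.50 to -0.03, adjusted p = 0.107 in limma).

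In the small subunit, AT1G64510 was the gene that fell. It encodes S6, which in bacteria assembles on the platform of the subunit as a pair with S18. The mock arrays were nearly equal, at 3495, 3469 and 3370.0, while the scutellarin arrays read 2879, 2724 and 2297. All scutellarin arrays lay below all mock arrays, with scutellarin replicate 3 the lowest. The mean fell from 3445 ± 66.0 to 2634 ± 301 (SD, n = 3), a log2 change of -0.39 ± 0.12 (SE, limma adjusted p = 0.0395). This call was the least stable of the 3. It was lost without any single array other than scutellarin replicate 1, with adjusted p between 0.0568 and 0.145, and the change without scutellarin replicate 3 was -0.30.

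AT5G24490, the gene for the ribosome-binding factor PSRP1, varied most between arrays of 1 group. Mock intensities were 7433, 4968 and 4346, and scutellarin intensities were 3461, 4798 and 3032. Scutellarin replicate 2 lay inside the mock range, and mock replicate 1 stood far above the rest. The coefficient of variation was 29.2% in mock and 24.5% with scutellarin. Its log2 change of -0.56 was close in size to those of L5 and L19 but did not pass (95% interval -1.001 to -0.11, limma adjusted p = 0.0759). The change was -0.33 without mock replicate 1. The gene passed without mock replicate 3 (-0.72, adjusted p = 0.0477) and without scutellarin replicate 2 (-0.75, adjusted p = 0.0216). It also passed on all 6 arrays with median centring (-0.59, limma adjusted p = 0.0411).

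AT3G13120 encodes S10, a protein of the head of the small subunit. It read 3989, 3475 and 3669 in mock and 3510.0, 2857 and 2663 with scutellarin. Scutellarin replicate 1 lay above mock replicate 2, so the groups overlapped. The log2 change was -0.31 (95% interval -0.59 to -0.03, limma adjusted p = 0.119). Without scutellarin replicate 1 it was -0.43 and passed (adjusted p = 0.0357).

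**Figure D2:**
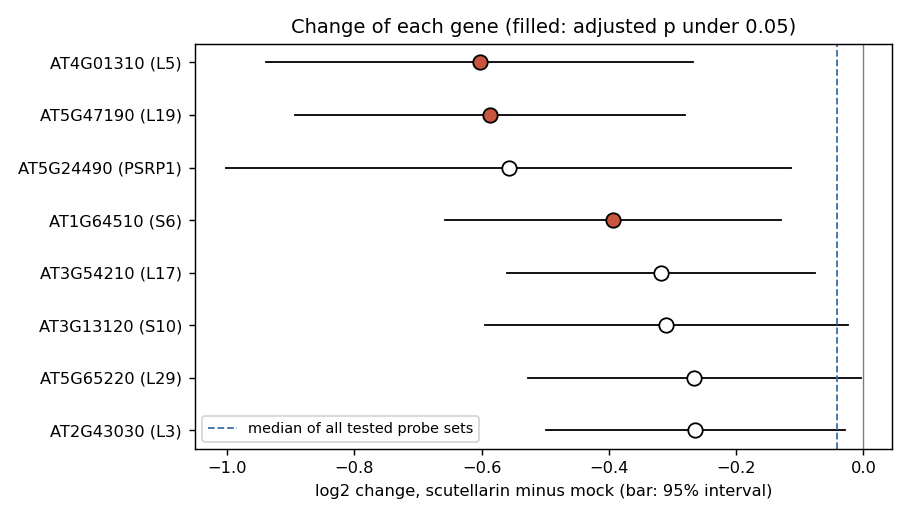
Log2 change (scutellarin minus mock, horizontal axis) of each of the 8 genes with its 95% interval, filled where the adjusted p was under 0.05, and the median of all tested probe sets as a dashed line. All 8 values lie between -0.60 and -0.26, left of the dashed line at -0.04, and the intervals overlap.

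The 8 changes spanned a narrow range, from -0.60 to -0.26 on the log2 scale, and their 95% intervals overlapped, so no order among the genes is drawn from them. Both subunits held genes that fell: 1 of 3 in the small subunit, with a median of -0.39, and 2 of 5 in the large subunit, with a median of -0.32. Every one of the 8 had an unadjusted p under 0.05 with a lower value in scutellarin, as did 17.1% of all tested probe sets. All scutellarin arrays lay below all mock arrays for 6 of the 8 genes, and for 18.6% of all tested probe sets. The 8 probe sets are bright, each brighter than at least 89.3% of the array. Among the 2437 probe sets at least as bright as that of AT5G47190, the dimmest of the 8, such a gap was more frequent. There 28.4% did not overlap with scutellarin lower, and 52.8% had a log2 change below 0. A separate limma fit was made to those probe sets alone, with its own adjustment. In that fit 21.6% of the probe sets fell, and 4 of the 8 genes, with AT3G54210 added (adjusted p = 0.0431).

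The number of falls changed with single arrays, the scaling and the variance model. Of the 8 genes, 0 fell without scutellarin replicate 3 (limma), 1 without mock replicate 1, 2 without mock replicate 2 and 4 without scutellarin replicate 1. In limma without a variance trend, 0 of the 8 fell, with adjusted p values of 0.0547 for AT5G47190, 0.0782 for AT4G01310 and 0.114 for AT1G64510. With median centring 4 fell and with quantile normalization 3. All 8 log2 changes stayed below 0 in each of the 16 alternative settings, scalings between arrays included.

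**Figure D3:**
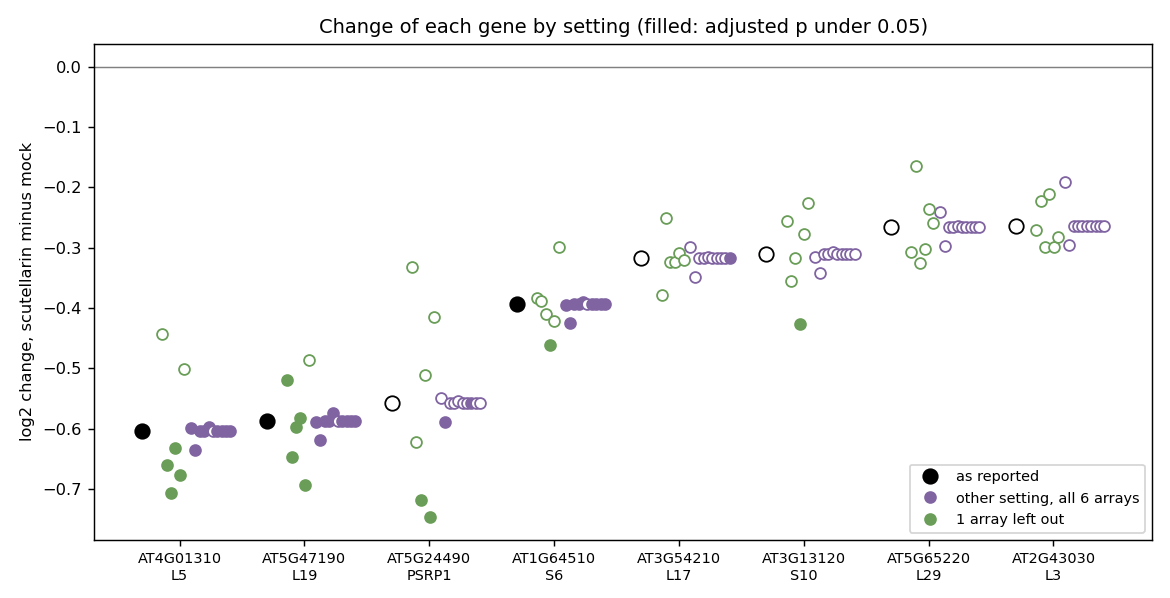
Log2 change (scutellarin minus mock, vertical axis) of each of the 8 genes as reported (black), with 1 array left out (green) and under other settings with all 6 arrays (purple), filled where the adjusted p was under 0.05. All points lie below 0, and those of AT5G24490 are spread from -0.75 to -0.33. Among the purple points only those for other scalings and the offset before log2 could differ from the black one.

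The genes differed in which arrays were highest and lowest. For 5 of them (AT1G64510, AT3G13120, AT4G01310, AT5G24490 and AT5G47190) mock replicate 1 was the highest of the 6 arrays and scutellarin replicate 3 the lowest. For the other 3 (AT2G43030, AT3G54210 and AT5G65220) mock replicate 2 was the highest, and the lowest was scutellarin replicate 2 for 2 of them and scutellarin replicate 1 for AT2G43030. All 3 of these are genes of the large subunit. This split was seen in the values and was given no test. Averaged over the 8 genes, log2 intensity relative to the mock mean was -0.37, -0.32 and -0.54 on scutellarin arrays 1 to 3, and 0.10, 0.00 and -0.10 on mock arrays 1 to 3.

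Nuclear genes for the factors that work with this ribosome were also lower. Of 23 loci listed for plastid translation and ribosome assembly, 8 were tested, all 8 had values below 0, 3 fell and none rose, with a median log2 change of -0.48. These counts stand beside 9.11% of all probe sets that fell. AT4G11175, for initiation factor IF1, fell by 0.84 on the log2 scale (SE 0.15, limma adjusted p = 0.00211). Its mock intensities were 1403, 1425 and 1168, and its scutellarin intensities 693, 874 and 675, with no overlap.

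AT5G08650, for the elongation factor LepA, changed by -0.49 ± 0.12 (SE, limma adjusted p = 0.0156), a call lost without mock replicate 3 (adjusted p = 0.0550) or scutellarin replicate 3 (0.0573). FUG1 (AT1G17220), the plastid initiation factor IF2, changed by -0.46 ± 0.14 (limma adjusted p = 0.0365). The call of FUG1 was lost without any single array other than mock replicate 3 or scutellarin replicate 2, with adjusted p between 0.0516 and 0.138. AT2G24060, for initiation factor IF3, was at -0.64 ± 0.25 without passing (limma adjusted p = 0.0979). Its change was -0.37 without mock replicate 1, and -0.92 without mock replicate 3, where it passed (adjusted p = 0.0226). Of the 8 factors, 1 fell without scutellarin replicate 3 and 1 with no variance trend (limma). In the fit to bright probe sets alone only 1 factor, FUG1, was tested, and it fell.

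The plastid genome encodes the remaining proteins of the ribosome. Of its 21 ribosomal protein genes by symbol, 15 were tested, all 15 had values below 0, 10 fell (9.11% of all probe sets did) and none rose, with a median log2 change of -1.18. The small subunit gene rps2 read 679, 794 and 589 in mock and 176, 507 and 319 with scutellarin. It changed by -1.16 ± 0.30 (SE, limma adjusted p = 0.0172), a call lost without mock replicate 2 (adjusted p = 0.0681). The genes rps19, rps16 and rpl16 changed by -1.60 ± 0.41, -1.18 ± 0.30 and -1.88 ± 0.51. For rpl16 the groups were close to touching, since the highest scutellarin array read 378 and the lowest mock array 381. Calls were lost for rps19 without mock replicate 1 (limma adjusted p = 0.0571), for rps16 without mock replicate 2 or 3 (0.0526 and 0.0539), and for rpl16 without mock replicate 1 or scutellarin replicate 1 or 3 (0.0807, 0.0726 and 0.0699).

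The plastid-encoded genes were far less even across the scutellarin arrays. Their mean log2 intensity relative to mock was -2.33, -0.29 and -1.13 on scutellarin arrays 1 to 3, where the 8 nuclear genes stood at -0.37, -0.32 and -0.54. Without scutellarin replicate 1 the median of the plastid-encoded genes was -0.76 and 5 fell. Without mock replicates 1, 2 and 3 the number that fell was 2, 3 and 6, and without scutellarin replicate 3 it was 5. Without scutellarin replicate 2 it was 12, with a median of -1.53. In limma, 0 of them fell with no variance trend, 3 with a robust variance prior and 6 with no filter. In the fit to bright probe sets alone 4 of them were tested and 1 fell, with a median of -0.81, where 21.6% of those probe sets fell. Scutellarin replicate 1, the lowest array for the plastid-encoded genes, was the lowest of the 6 arrays for 1 of the 8 nuclear genes, AT2G43030. The difference between both sets of genes was not tested.

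**Figure D4:**
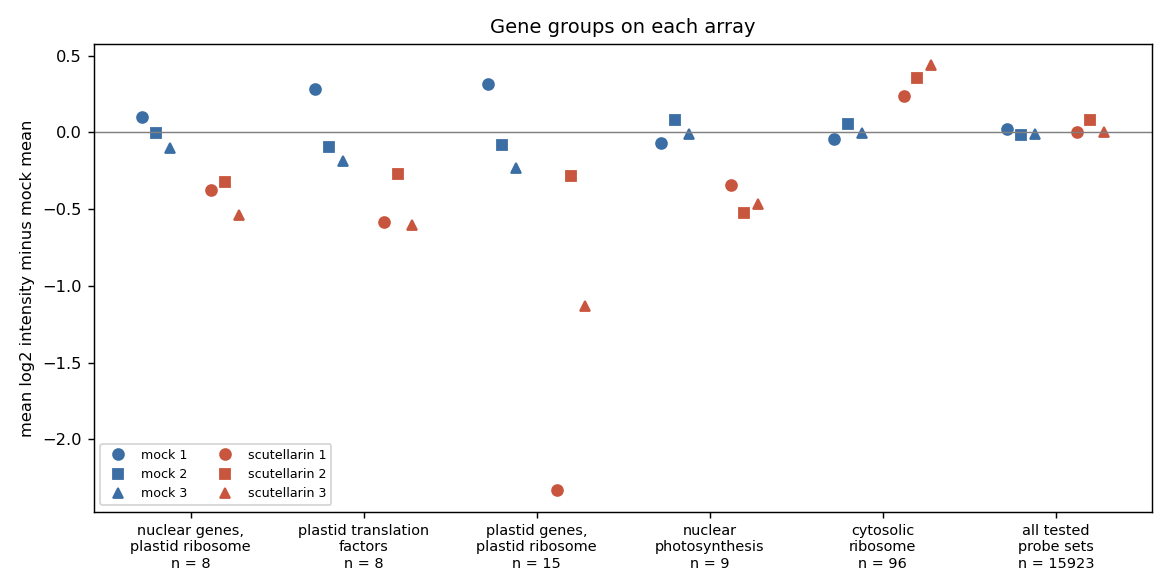
Mean log2 intensity minus the mock mean (vertical axis) of each gene group on each of the 6 arrays, mock in blue and scutellarin in red, with circles, squares and triangles for replicates 1, 2 and 3. The 8 nuclear genes for the plastid ribosome lie between -0.54 and -0.32 on the scutellarin arrays, plastid-encoded genes between -2.33 and -0.29, and cytosolic ribosomal protein genes between 0.24 and 0.44.

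Genes for the ribosome of the cytosol, which makes the imported proteins, mostly had values above 0. Of 96 tested genes, 33 rose, beside 10.3% of all probe sets, and 63 did not pass, while none fell. In the fit to bright probe sets alone 28 of 82 of these genes rose, beside 392 of all 2437 probe sets. In all 91 had values above 0 and 5 below, and the median log2 change was 0.30. AT2G20450, for L14 of the cytosolic large subunit, rose by 0.76 ± 0.13 (SE, limma adjusted p = 0.00139). AT5G22440, for L10a, rose by 0.77 ± 0.13. When a mock array was left out the number that rose was 19, 21 and 20 (replicates 1 to 3), and when a scutellarin array was left out it was 39, 27 and 14. Between scalings it was 21 with median centring and 41 with quantile normalization, and it was 12 with no variance trend (limma).

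Markers of green tissue were lower with scutellarin, as the 8 genes were, while markers of roots were higher. Of the 40 listed nuclear photosynthesis genes 9 were tested, and all 9 had values below 0. Of these 4 fell (9.11% of all probe sets did) and none rose, with a median log2 change of -0.34. In the fit to bright probe sets alone 8 of them were tested and 5 fell, where 21.6% of those probe sets fell. After quantile normalization 7 of the 9 were below 0 and 3 fell, with a median of -0.22. Their summed intensity was 149929 to 161313 in mock and 114697 to 131417 with scutellarin, and that of the 8 plastid ribosomal protein genes 40485 to 45764 and 32163 to 35469. Of 7 listed root markers 3 were tested and rose, where 10.3% of all probe sets rose. PYK10, a root beta-glucosidase gene, rose by 0.99 ± 0.13 (SE) on the log2 scale, from mock intensities of 5912, 6011 and 5349 to 9663, 12583 and 12135. The root hair expansin gene EXPA18 read 14.7, 30.7 and 8.89 in mock and 397, 413 and 548 with scutellarin, and EXPA7 read 1.81, 7.21 and 22.0 in mock and 253, 207 and 316 with scutellarin. Mock levels of both expansin genes lay near the floor of 1, so their fold sizes are uncertain: the log2 change of EXPA18 was 4.82, and 3.29 with 32 added before log2, and that of EXPA7 was 5.27, and 2.79 with 32 added. EXPA7 no longer passed the filter when any 1 scutellarin array was left out. The mock levels of EXPA18 also lay too low to pass the filter on their own. The count of both expansin genes as risers is therefore no separate support. The summed intensity of the 3 was 5379.6 to 6049 in mock and 10314 to 13202 with scutellarin, nearly all of it from PYK10. No tested member of either list lay at the floor of the scale on any array. The part of these tissues in the lower levels of the plastid ribosomal protein genes was not tested.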

How the data were processed

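The authors deposited linear intensities, with 1 value for each probe set on each array, made with MAS5, the Affymetrix probe set summary, per the submitters' processing notes. The MAS5 version is not given in the sources used here, nor are its settings. All 6 arrays had a floor of exactly 1, and the mean after leaving out 2% of values at each end was 493.9 to 495.1 on all arrays. Detection calls were not used here. Intensities were log2-transformed with no further normalization.

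Both groups were compared by a two-sided test in limma 3.58.1 under R 4.3.3, using lmFit and then eBayes with its trend option, on the 15923 probe sets left after the 30% filter, with no block. Its script was first tested on simulated data. Genes came from the platform annotation, matched by gene ID to the RefSeq table of assembly TAIR10.1 (13436 of 13513). Coordinates are left out because no genome build is named for the array. None of the 8 probe sets carries the suffix that marks possible cross-hybridisation. A gene with several probe sets was read by the brightest.

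The members, lists and tests were chosen with earlier results of these data known. Members that passed, the 5 lowest and 5 highest members by log2 change, and up to 4 genes per comparison list by adjusted p were to be named, which took in all 8 members. Genes for cytosolic and mitochondrial ribosomal proteins were to be found by description words, which gave none. The list of 184 cytosolic loci was written afterwards, and the planned mitochondrial list was not used. Lists for plastid transcription and for regulators of nuclear plastid genes had no tested member. Of the list members, 104 cytosolic loci had a named probe set and 96 were kept. The alternatives changed the scaling (quantile normalization or median centring), the filter (none or 50%), the offset (32 before log2), or the variance model (no trend or a robust prior). They also were the replicate block, leaving out each array, dropping those of the 1061 possibly cross-hybridising probe sets that passed the filter, and, added after the data were seen, only bright probe sets. The comparison lists were run under the same alternatives, a step also added afterwards. The number of arrays limits the precision. Figures were drawn with matplotlib 3.10.9.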

Additional observations from a re-analysis of the deposited data

How the results depend on the processing

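Of the 128 log2 changes of the 8 genes under alternatives, 111 kept their side of the threshold, 11 lost the call, 6 gained it and 0 changed sign. A change of sign was possible only under the scalings, the offset and with an array left out. The median change of the 8 lay between -0.44 and -0.31. The number of the 8 that fell was 0 with no variance trend. It ranged from 0 to 4 when 1 array was left out, where 0 came without scutellarin replicate 3 and 1 without mock replicate 1. The cause was not tested. No gene of the 8 rose under any alternative. Over all probe sets 3094 were called, between 2035 and 2836 without 1 array, and 918 among the 2437 bright probe sets, where fewer were tested. With median centring 46.8% of calls were rises, beside 53.1% as reported. With the replicate block 2923 probe sets were called and 4 of the 8 genes fell, AT5G24490 added (adjusted p = 0.0485). No pairing of arrays of the same number was evident, with correlations of deviations of -0.04, -0.09 and 0.11. The labels do not say whether such arrays shared an experiment. Reading a gene by the mean of its probe sets was not run, since each of the 8 genes has 1. The 3 arrays per group limit what small changes can be called.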

Other observations

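The plastid gene rps18, which encodes the partner of S6 in bacterial small subunits, was looked at outside the rule for named genes, after its values were seen. It read 2288, 3045 and 2514 in mock and 423, 2348 and 2752 with scutellarin, so only scutellarin replicate 1 lay below the mock arrays. Its log2 change was -0.89 ± 0.51 (SE, limma adjusted p = 0.253). On the same array AT1G64510, for S6, had the highest of its 3 scutellarin values, at 2879.

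For the factors of plastid translation, mock replicate 1 had the highest mean log2 intensity relative to mock, at 0.28, as it had for the plastid-encoded ribosomal protein genes, at 0.31. For the nuclear photosynthesis genes the highest was mock replicate 2, at 0.08. Among the factors, AT5G46580, for a plastid ribosomal RNA processing protein, read 922, 895 and 928 in mock and 683, 827 and 737 with scutellarin. It did not pass (log2 change -0.29 ± 0.13, limma adjusted p = 0.146), though its groups did not overlap. All scutellarin arrays lay below all mock arrays for 5 of the 8 factors, and for 18.6% of all tested probe sets. This gene, too, was named outside the rule for named genes.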
